A study of Bos taurus with 12 samples.

Results

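Hypoxia-inducible factor 1 alpha, the oxygen-regulated transcription factor encoded by HIF1A, was described together with the growth factors and receptors through which blood vessels form in the bovine corpus luteum. The genes were HIF1A, the ligands VEGFA, FGF1, FGF2 and PDGFB, and the receptors KDR and FGFR1. They are 7 of the 6741 genes named in the annotation of a 1-colour Agilent array. Taken by symbol, they gave 10 of its 15208 probes. 7 of these carried the symbol itself, and 3 carried an older symbol that RefSeq lists for the gene: VEGFA ABR7085 and ABR7080 are annotated as VEGF, and KDR ABR1800 as flk-1. VEGFA, KDR and FGF2 have 2 probes each, and the other genes have 1.

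The corpus luteum is the ovarian gland that secretes progesterone. It was collected from Japanese Black cows 10 to 30 min after slaughter, 4 cows in each of 3 groups, with insemination counted as day 1. The P18 cows were pregnant on day 18, the P15 cows were pregnant on day 15, and the NP15 cows were not pregnant and were on day 15 of the estrous cycle. P15 against NP15 therefore compares pregnancy on 1 day, P18 against P15 compares 2 days of pregnancy, and P18 against NP15 differs in both. All groups shared the breed, the tissue and the labelling of 400 ng of total RNA with Cy3. Whole glands were measured, so fewer cells of a type and less RNA per cell cannot be told apart.

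In cells with enough oxygen, HIF-1 alpha is hydroxylated by prolyl hydroxylases and degraded through the VHL ubiquitin ligase. In low oxygen it is stabilised, pairs with ARNT and activates genes for glucose metabolism and for VEGFA, a secreted factor that drives endothelial cells to divide and migrate through its receptor KDR (VEGFR2). The corpus luteum is among the most densely vascularised tissues of the adult, and VEGFA and FGF2 are the best known drivers of its vessel growth in cattle. FGF1 and FGF2 signal through tyrosine kinase receptors such as FGFR1, and PDGFB, made largely by endothelial cells, recruits pericytes to new vessels.

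The array reads each gene through 60-base probes. Those of HIF1A, of VEGFA (ABR7085), of its receptor KDR (ABR1800) and of FGFR1 are shown because the results contrast a transcription factor, a ligand and a receptor that were lower on day 18 with a receptor that did not pass the test. They are written 5′ to 3′ as on the array, and capitals mark the whole stretch on which labelled RNA is captured.
HIF1A ABR547: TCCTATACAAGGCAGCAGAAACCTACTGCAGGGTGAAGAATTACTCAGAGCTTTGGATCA
VEGFA ABR7085: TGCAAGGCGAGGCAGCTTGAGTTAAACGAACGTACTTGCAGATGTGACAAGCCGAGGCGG
KDR ABR1800: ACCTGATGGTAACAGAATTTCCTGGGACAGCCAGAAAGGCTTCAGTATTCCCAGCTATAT
FGFR1 ABR1580: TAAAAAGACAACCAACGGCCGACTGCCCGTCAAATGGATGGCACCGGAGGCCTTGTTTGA

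The FGFR1 probe belongs to a receptor family with close relatives. Its longest run of bases shared with a probe of FGFR2, FGFR3 or FGFR4 on the array was 5 to 6. That compares probes with probes, which may lie on different parts of the transcripts. Whether the FGFR1 probe also captures RNA of the other receptors was not tested. The 2 probes of VEGFA shared a run of at most 5 bases, those of KDR 8 and those of FGF2 5, so the probes of a gene read different stretches of it. The share of G and C was 45% in the HIF1A probe, 55% in VEGFA ABR7085, 45% in KDR ABR1800, 28.3% in KDR ABR2024 and 53.3% in the FGFR1 probe. The positions of these probes in the bovine genome were not used here.

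P18 was hybridised and scanned on a slide of its own, so slide and group cannot be told apart in both comparisons that use it. P15 and NP15 shared a slide but filled different slide rows, so between them the effect of slide row cannot be told apart from that of group. P18 arrays had a higher signal on negative control spots (78.8 to 92.2 units, against 32.1 to 36.4 on P15 and 34.7 to 38.5 on NP15 arrays). Fewer probes were well above background on them (67.5% to 72.6%, against 75.3% to 80.5% on P15 and 79.6% to 85.6% on NP15 arrays). Arrays of a group correlated with r of 0.981 to 0.986 in P18, 0.979 to 0.988 in P15 and 0.962 to 0.991 in NP15. NP15 replicate 4 stood apart on the second principal component (−78.4, against −15.5 to 22.2 for the other arrays), and P15 replicate 4 on the third (−46.6). All 11 measured markers of steroidogenic luteal cells were well above background in every group. The number of arrays limits the precision of every comparison.

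A level is given below as the background-corrected signal in percent of the array's 75th percentile, and the 4 values of a group follow the replicate numbers 1 to 4. Tests were made on the log2 scale with limma across all 12605 probes that were well above background on at least 3 arrays of a group, and a probe passed at a Benjamini-Hochberg adjusted p under 0.05. 9 of the 10 probes met that filter. FGF2 ABR7076 was well above background on 2 P15 arrays and on no other array, with levels of 0.0892% to 0.974%, and was not tested.

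HIF1A was lower in the corpus luteum of P18 cows than in both day 15 groups, and of the 9 probes it had the smallest adjusted p in both comparisons. Its level was 59.5%, 59.9%, 59.2% and 55.2% in the 4 P18 cows, against 152%, 202%, 186% and 184% in the P15 cows and 234%, 172%, 178% and 196% in the NP15 cows. Every P18 cow lay below every day 15 cow, with a wide gap, and the P18 cows were close together while the day 15 groups overlapped. The means were 58.4% ± 2.15 in P18, 181% ± 21.0 in P15 and 195% ± 27.7 in NP15 (SD, n = 4 each). The log2 change was −1.73 against NP15 (SE 0.12, limma adjusted p = 1.32e-05), a level 3.32-fold lower. Against P15 it was −1.62 (SE 0.12, limma adjusted p = 1.98e-05), a level 3.08-fold lower. HIF1A ranked 17 by p among all probes against NP15 and 22 against P15, and 1.63% and 1.75% of all probes had a larger fall. No difference between P15 and NP15 was detectable at this precision (log2 change −0.11, 95% confidence interval −0.38 to 0.16, limma adjusted p = 0.851).

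**Figure D1:**
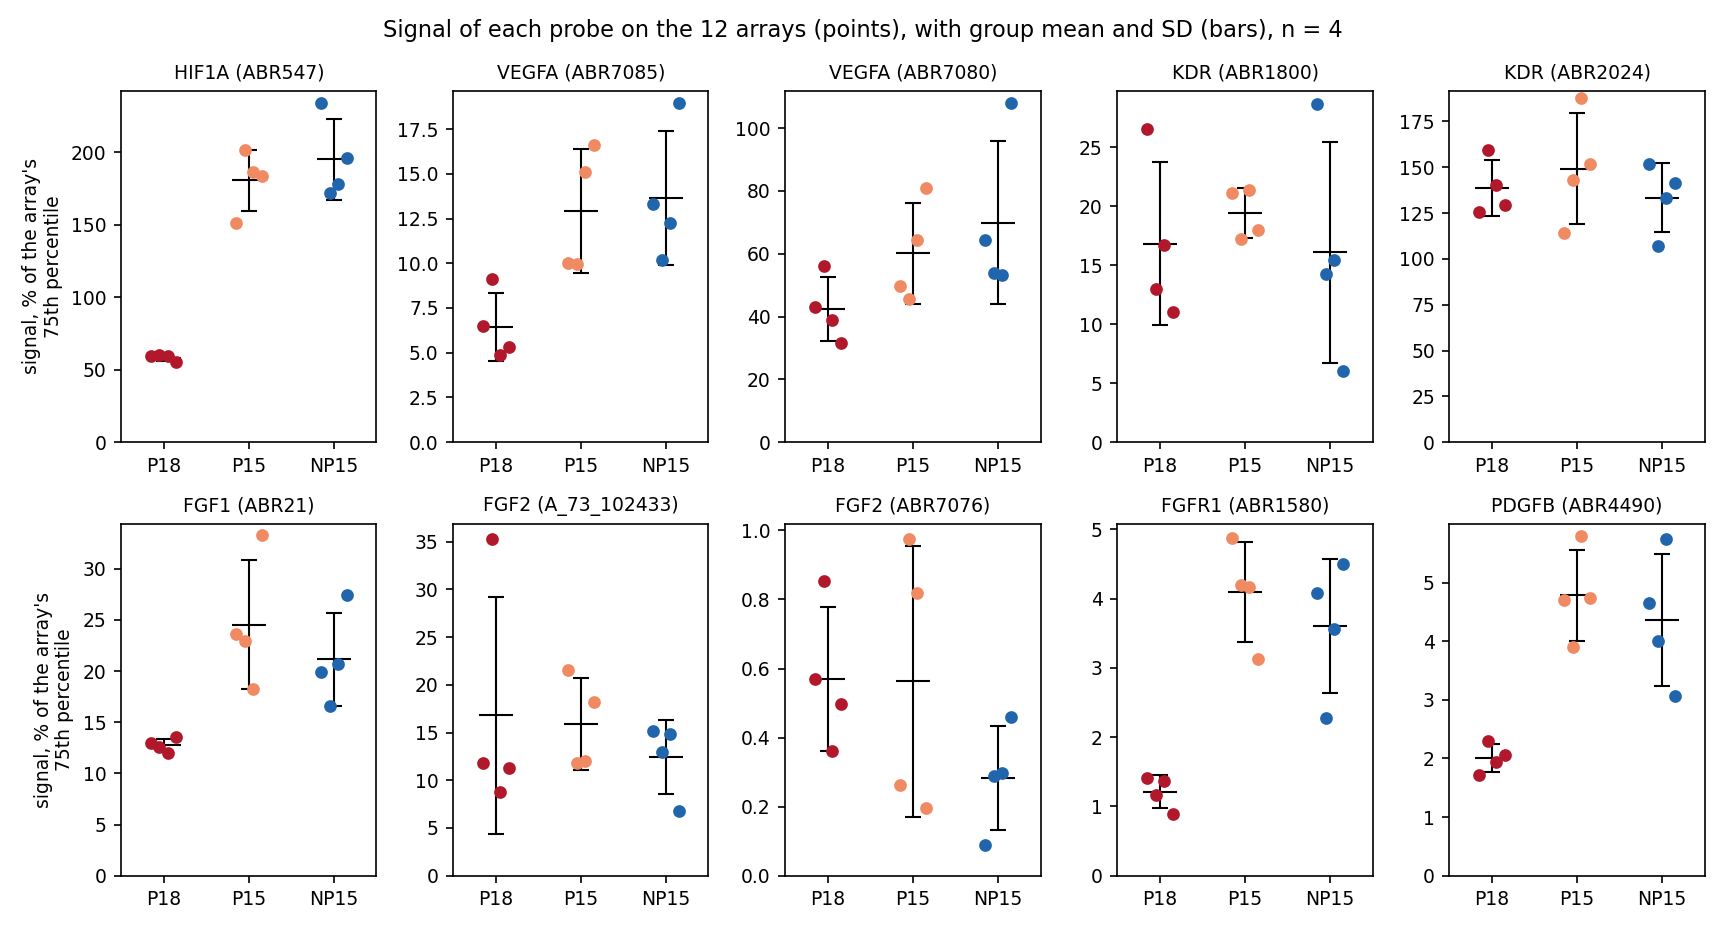
Level of each probe (y axis, signal in percent of the array's 75th percentile, linear from 0, scale differs by panel) in P18, P15 and NP15; points are the 4 arrays of a group from replicate 1 on the left to 4 on the right, and bars are mean and SD. HIF1A, FGF1, FGFR1, PDGFB and VEGFA ABR7085 have all P18 points below all day 15 points, while the KDR and FGF2 panels show overlapping groups.

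Across the 9 tested probes, 5 were lower in P18 than in NP15 and 0 were higher. Of all probes tested, 18.7% were lower, 11.2% were higher and 29.9% passed in either direction. The same 5 probes were lower than in P15, where 15.6% of all probes were lower, 13.5% were higher and 29% passed in either direction. They belong to HIF1A, VEGFA (ABR7085), FGF1, FGFR1 and PDGFB. FGFR1 met the filter on low values only through the day 15 groups, in which it was brighter, and leaving it aside 4 of 8 probes were lower. In each of them all P18 values lay below all values of both day 15 groups, as did 18.6% of all probes against NP15 and 18.4% against P15. The median log2 change of the 9 probes was −0.71 against NP15 and −0.91 against P15, beside −0.06 and −0.03 over all probes. Both comparisons use the P18 arrays, so their values are given side by side and were not counted as separate support. With each array centred on its median, the median of all probes moved to 0.18 against NP15 and 0.20 against P15. Calls then split into 2924 higher and 1361 lower against NP15 (as reported: 1410 and 2363), and 3227 higher and 1179 lower against P15 (as reported: 1698 and 1961). With normexp background correction they were 2014 higher and 1540 lower against NP15, and 2039 higher and 1273 lower against P15.

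Between P15 and NP15, 0 of the 9 probes passed, with limma adjusted p from 0.814 to 0.950, and 0 had an unadjusted p under 0.05. Of all probes, 0.976% passed this comparison, 0.579% as lower and 0.397% as higher in P15 (123 probes, 117 of them in the outer 24 rows at either end of the array), and 1112 had an unadjusted p under 0.05. With the inner rows tested alone, 0 of 9469 probes passed. The groups overlapped for every probe of the 7 genes. The widest interval was that of FGF2, whose log2 change was 0.37 (95% confidence interval −0.56 to 1.30), followed by KDR ABR1800 with 0.47 (−0.43 to 1.36). The narrowest was that of HIF1A, given above.

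**Figure D2:**
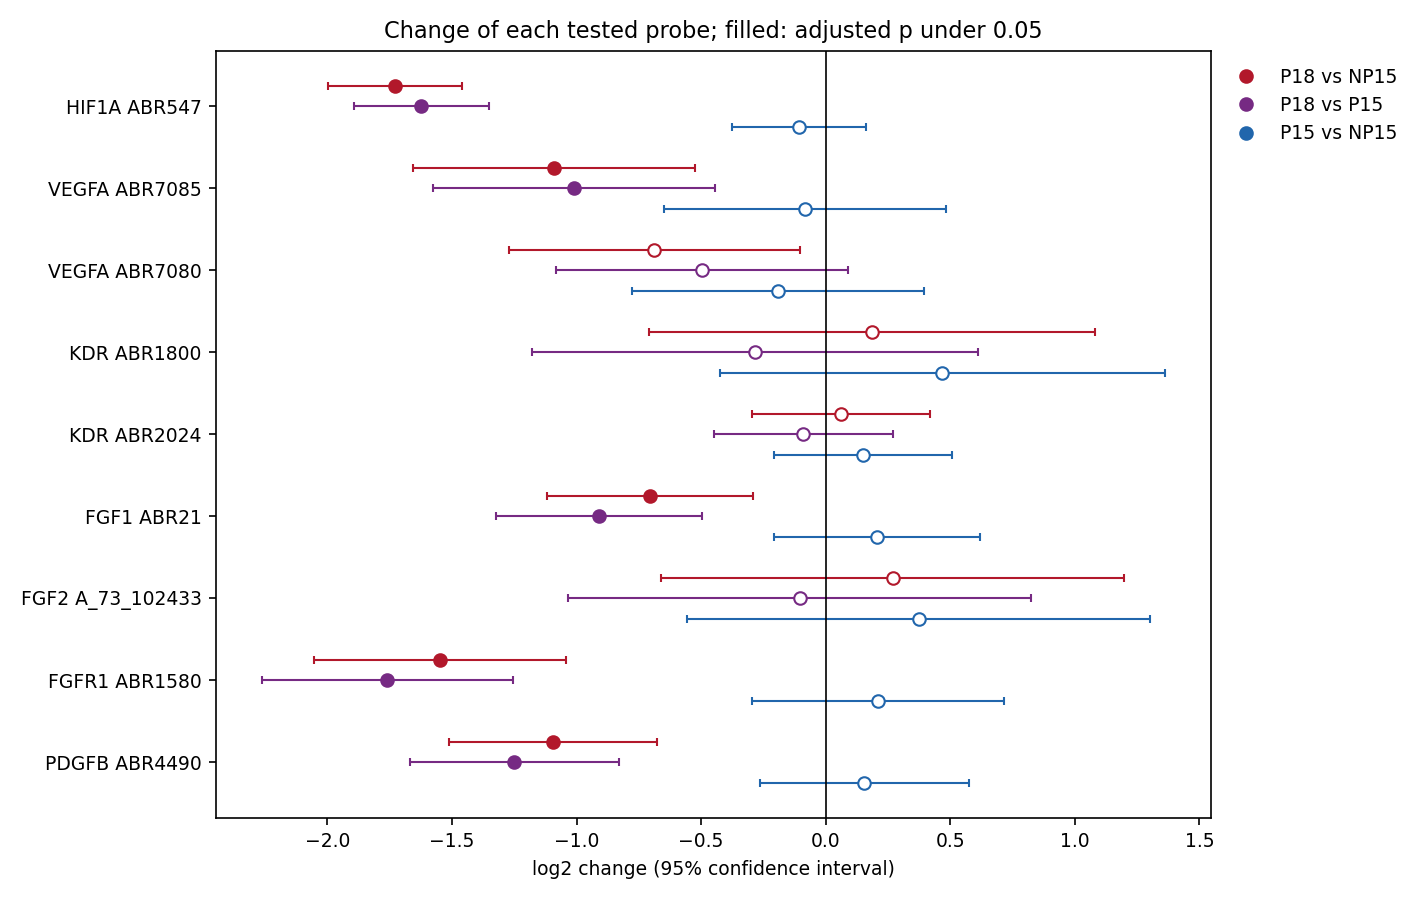
Log2 change of the 9 tested probes (x axis) with its 95% confidence interval (bars) for P18 against NP15, P18 against P15 and P15 against NP15; filled points passed an adjusted p of 0.05 in limma over all 12605 probes. Of the 5 probes that passed in the comparisons with P18, HIF1A, VEGFA ABR7085, FGF1 and PDGFB lie between −0.71 and −1.73; the FGFR1 point is a difference of measured values whose P18 arrays were not above background, so only a bound on its fold is known. No P15 against NP15 point is filled.

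Among the ligands, VEGFA was measured by 2 probes with different outcomes. ABR7085 read 6.48%, 9.11%, 4.86% and 5.32% in P18 cows, against 10.0%, 9.96%, 15.1% and 16.6% in P15 cows and 13.3%, 10.2%, 12.3% and 18.9% in NP15 cows. All P18 cows lay below the day 15 cows, but P18 replicate 2 was close to the lowest P15 values. Its log2 change was −1.09 against NP15 (SE 0.26, limma adjusted p = 0.00860), a level 2.13-fold lower, and −1.01 against P15 (SE 0.26, limma adjusted p = 0.0131), a level 2.01-fold lower. ABR7080 read 43.0%, 56.2%, 38.8% and 31.7% in P18 cows, against 49.7%, 45.6%, 64.4% and 80.8% in P15 cows and 64.3%, 54.0%, 53.4% and 108% in NP15 cows. Here the groups overlapped because of P18 replicate 2, the highest P18 cow by both probes. The log2 change was −0.69 against NP15 (95% confidence interval −1.27 to −0.10, limma adjusted p = 0.0732) and −0.50 against P15 (−1.08 to 0.09, limma adjusted p = 0.189), and neither passed. Without P18 replicate 2 the change against NP15 was −0.83 and passed (limma adjusted p = 0.0482).

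The change of ABR7085 minus that of ABR7080 was −0.40 on the log2 scale in P18 against NP15 and −0.51 in P18 against P15. In an exact two-sided permutation test over the arrays each difference had p = 0.0286, the smallest p that 4 against 4 allows. The adjusted p of these permutation tests was 0.0857 over the 6 tests of this kind, so a difference between the probes was not shown. Even at the smallest p neither could pass unless more of the 6 tests reached it, so these tests could not decide the question. Within each day 15 group both probes were highest in replicate 4, in which NP15 stood apart over all probes. VEGFA is spliced into several isoforms, and which of them each probe reads was not examined.

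FGF1, the acidic fibroblast growth factor, was lower in P18 and was the ligand that varied least among the P18 cows. It read 13.0%, 12.6%, 12% and 13.5% in P18 cows, against 23.6%, 23.0%, 18.3% and 33.3% in P15 cows and 19.9%, 16.5%, 20.7% and 27.4% in NP15 cows. The P18 cows were close together and below every day 15 cow. The log2 change was −0.71 against NP15 (SE 0.19, limma adjusted p = 0.0158), a level 1.63-fold lower, and −0.91 against P15 (SE 0.19, limma adjusted p = 0.00436), a level 1.88-fold lower. The call against NP15 ended with quantile normalization (−0.49, adjusted p = 0.0754) and with median centring (−0.47, adjusted p = 0.0825). The call against P15 passed under both.

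FGF2, the basic fibroblast growth factor, did not pass in any comparison and was the most variable ligand in P18. Its tested probe read 11.9%, 35.3%, 8.82% and 11.2% in P18 cows, against 21.6%, 11.8%, 12% and 18.2% in P15 cows and 15.1%, 13.0%, 14.8% and 6.76% in NP15 cows. P18 replicate 2 was the highest of all 12 cows and the other P18 cows lay within the range of the day 15 cows. The log2 change was 0.27 against NP15 (95% confidence interval −0.66 to 1.20, limma adjusted p = 0.671) and −0.10 against P15 (−1.03 to 0.82, limma adjusted p = 0.884). The interval reaches a doubling against NP15 and a halving against P15, so changes of that size were not detectable at this precision.

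PDGFB, the B chain of platelet-derived growth factor, was lower in P18 than in both day 15 groups. It read 1.72%, 2.30%, 1.94% and 2.06% in P18 cows, against 4.70%, 3.90%, 5.80% and 4.74% in P15 cows and 4.64%, 4.01%, 5.74% and 3.06% in NP15 cows. The groups did not overlap, and 3 of the 4 P18 arrays were well above background, against all of the day 15 arrays. The log2 change was −1.09 against NP15 (SE 0.19, limma adjusted p = 0.00153), a level 2.13-fold lower, and −1.25 against P15 (SE 0.19, limma adjusted p = 0.000752), a level 2.38-fold lower. With normexp background correction the change against NP15 was −0.31 and did not pass (adjusted p = 0.123), and that against P15 was −0.45 and passed (adjusted p = 0.0349).

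Of the receptors, FGFR1 was lower in P18 and KDR did not pass in any comparison. FGFR1 read 1.42%, 1.17%, 1.37% and 0.891% in P18 cows, against 4.88%, 4.19%, 4.16% and 3.12% in P15 cows and 4.08%, 2.28%, 3.55% and 4.50% in NP15 cows. None of the P18 arrays and all 8 day 15 arrays read it well above background, so only a bound on its fold can be given. A bound sets the mean of the brighter group against, on each dim array, the lowest signal of any probe well above background there. The fit used P18 values below background, so its p is given with the bound and not as separate support. FGFR1 was at least 1.98-fold lower in P18 than in NP15 (limma adjusted p = 0.000615) and at least 2.29-fold lower than in P15 (limma adjusted p = 0.000305). With normexp the log2 change was −0.47 against NP15 and did not pass (adjusted p = 0.0510), and −0.65 against P15, which passed (adjusted p = 0.0125). In background-corrected signal units FGFR1 read 28.6 to 50.2 on the P18 arrays, 102 to 158 on P15 and 95.3 to 142 on NP15 arrays. The negative control signal of the P18 arrays, 78.8 to 92.2, is a net signal and another measure, so it is not set against these values. The part of the higher P18 background in the FGFR1 and PDGFB results was not tested.

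KDR was read by a dim and a bright probe, and the groups overlapped in both. ABR2024 read 125%, 159%, 141% and 130% in P18 cows, against 114%, 143%, 188% and 152% in P15 cows and 152%, 107%, 133% and 141% in NP15 cows. Its log2 change was 0.06 against NP15 (95% confidence interval −0.30 to 0.42, limma adjusted p = 0.808) and −0.09 against P15 (−0.45 to 0.27, limma adjusted p = 0.725). Neither interval reaches the change of HIF1A, PDGFB or VEGFA ABR7085 in the same comparison. ABR1800 read 26.6%, 12.9%, 16.7% and 11% in P18 cows, against 21.1%, 17.2%, 21.3% and 18.0% in P15 cows and 28.7%, 14.2%, 15.5% and 6.02% in NP15 cows. It was spread within P18 and NP15, and its log2 changes of 0.19 against NP15 (−0.71 to 1.08, limma adjusted p = 0.767) and −0.28 against P15 (−1.18 to 0.61, limma adjusted p = 0.646) did not pass. The changes of the 2 KDR probes differed by 0.12 against NP15 and −0.19 against P15 (exact two-sided permutation tests, adjusted p = 0.83 for each).

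**Figure D3:**
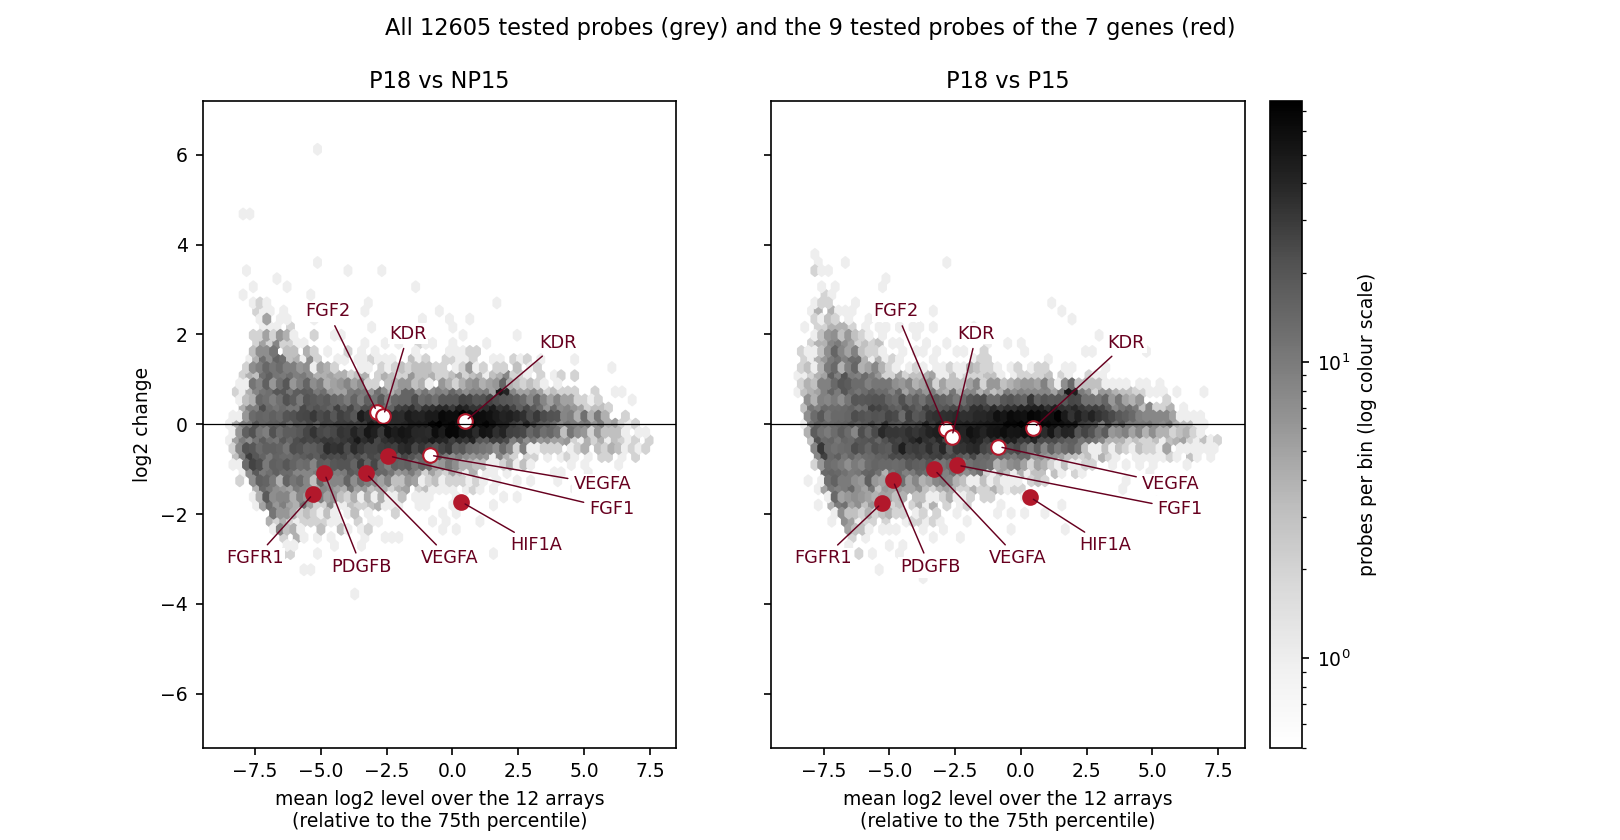
Mean log2 level over the 12 arrays relative to the 75th percentile (x axis) and log2 change (y axis) of all 12605 tested probes (grey, darker bins hold more probes on a log colour scale) and of the 9 probes (red, filled where the adjusted p was under 0.05) for P18 against NP15 and P18 against P15. HIF1A lies at the lower edge of the probes of its brightness in both panels, while FGFR1 and PDGFB lie among dim probes, whose changes spread more widely.

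The probes sit in parts of the brightness range where calls are not equally common. HIF1A was at the 73.6th percentile of mean level among the tested probes, in the fourth of 5 equal brightness bins, where 13.4% of probes were lower in P18 than in NP15. FGFR1 was at the 20.9th, PDGFB at the 24.3rd and VEGFA ABR7085 at the 38.1st, in the second bin, where 27.2% were lower. FGF1 at the 46.1st fell in the third bin, with 22.6%. FGF1, FGFR1 and KDR ABR2024 lie in the outer rows of the array, where 20.6% of probes were lower in P18 than in NP15.

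**Figure D4:**
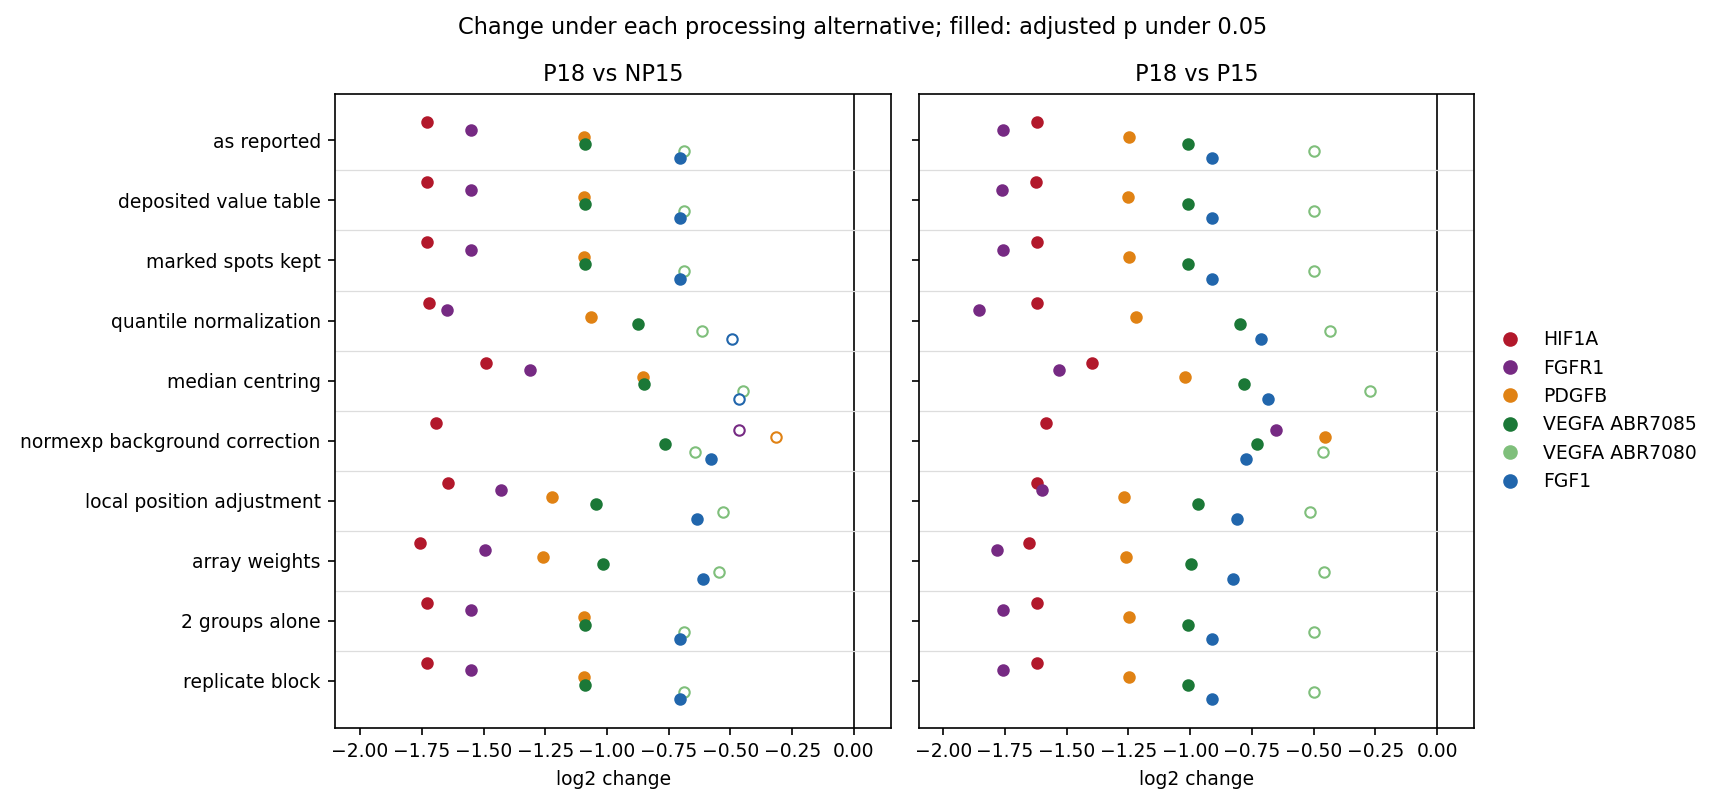
Log2 change (x axis) of HIF1A, FGFR1, PDGFB, FGF1 and the VEGFA probes under each processing alternative (rows) for P18 against NP15 and P18 against P15; filled points passed an adjusted p of 0.05. HIF1A stays between −1.76 and −1.40 and filled in each row of both panels, whereas FGFR1 and PDGFB move toward 0 with normexp.

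Of the 5 lower probes, HIF1A passed in both comparisons under each of its 13 alternatives, VEGFA ABR7085 under each of the 12 in which it was tested, and both without any single array. With the brightest probe taken per gene, VEGFA was read by ABR7080 alone and did not pass (adjusted p = 0.0744 against NP15 and 0.192 against P15). Across the alternatives HIF1A ranged from −1.76 to −1.49 against NP15 and from −1.65 to −1.40 against P15, and VEGFA ABR7085 from −1.09 to −0.76 and from −1.01 to −0.73. Against P15 all 5 passed under each alternative in which they were tested and without any single array. Without both arrays that stood apart, NP15 replicate 4 and P15 replicate 4, 5 probes passed in each comparison with P18 and 0 between P15 and NP15.

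The rest of the HIF system was measured by 11 genes. None passed between P15 and NP15, where ARNT, the partner of HIF-1 alpha, had the smallest p (log2 change −0.37, limma adjusted p = 0.478). In P18, 3 of the 11 were lower and 0 higher against NP15 (all probes: 18.7% lower, 11.2% higher), and 2 were lower and 1 higher against P15 (all probes: 15.6% lower, 13.5% higher). Median log2 changes were −0.06 against NP15 and 0.03 against P15, beside −0.06 and −0.03 over all probes. EPAS1, which encodes HIF-2 alpha, changed by −0.71 against NP15 (limma adjusted p = 0.0110) and by −0.84 against P15 (0.00477). EGLN3, a prolyl hydroxylase that marks HIF alpha subunits for degradation, changed by −1.04 against NP15 (limma adjusted p = 0.0126), with 2 of 4 P18 arrays well above background. CUL2, the scaffold of the VHL ubiquitin ligase, changed by −0.42 against NP15 (limma adjusted p = 0.0138) and by −0.35 against P15 (0.0338). HIF3A, a further alpha subunit, was higher than in P15 by 0.74 (limma adjusted p = 0.0442). ARNT had log2 changes of −0.06 against NP15 (limma adjusted p = 0.812) and 0.31 against P15 (0.138) and did not pass.

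Several of these calls depended on the processing or on single arrays. With median centring EPAS1 and CUL2 no longer passed against NP15 (adjusted p = 0.0628 and 0.266), nor did CUL2 against P15 (0.468). EGLN3 did not pass with normexp (0.241). CUL2 against P15 did not pass without P15 replicate 2 or 3 or P18 replicate 1, 2 or 4 (adjusted p up to 0.0966). HIF3A passed only without NP15 replicate 4, P15 replicate 1 or P18 replicate 3, and otherwise reached up to 0.115, and it did not pass with quantile normalization (0.0581) or without NP15 replicate 4 and P15 replicate 4 together (0.110). On the 2 groups alone neither passed against P15 (CUL2 0.0568, HIF3A 0.0760).

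Among 19 genes known as HIF targets, most did not pass. Of the 19, 4 were lower and 1 higher in P18 against NP15 (all probes: 18.7% lower, 11.2% higher), and 3 were lower and 1 higher against P15 (all probes: 15.6% lower, 13.5% higher). SLC2A3, counted as lower in both, met the filter only through NP15, and its calls are not read as support. Median log2 changes were −0.12 against NP15 and −0.13 against P15, beside −0.06 and −0.03 over all probes. LOX, lysyl oxidase, which crosslinks collagen, had the largest change among those that passed: −1.58 against NP15 (limma adjusted p = 0.00586) and −1.70 against P15 (0.00407). LDHA, lactate dehydrogenase A, changed by −0.76 against NP15 (limma adjusted p = 0.00945) and −0.71 against P15 (0.0134). PGK1, a glycolytic kinase, changed by −0.43 against NP15 (limma adjusted p = 0.0302). P4HA1, a collagen prolyl hydroxylase, was higher by 0.54 against NP15 (limma adjusted p = 0.0289), and PFKFB3, a regulator of glycolysis, was higher by 1.29 against P15 (0.00677). The glucose transporter SLC2A3 passed as lower than in NP15 (limma adjusted p = 0.0333) and than in P15 (0.0133). It was well above background on 0 P18, 2 P15 and 4 NP15 arrays, so no fold is given. SLC2A1, the other glucose transporter of the list, had log2 changes of 0.11 against NP15 (limma adjusted p = 0.720) and 0.44 against P15 (0.130) and did not pass. None of the 19 passed between P15 and NP15, where PFKFB3 had the smallest p (limma adjusted p = 0.671).

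LOX and PFKFB3 passed under each alternative in which they were tested and without any single array. With normexp PFKFB3, well above background on 4 P18 and 3 P15 arrays, was higher than in P15 by 0.66. LDHA did not pass with median centring in either comparison, and SLC2A3 did not pass against P15 with normexp (adjusted p = 0.321). P4HA1 did not pass with the local position adjustment, and PGK1 did not with median centring, the 2 groups alone or the replicate block. P4HA1 was also lost without NP15 replicate 1, 2 or 3 or P18 replicate 2 or 4 (adjusted p up to 0.0756). PGK1 was lost without NP15 replicate 1 or 4 or P18 replicate 1, 2 or 4 (up to 0.0824), and without NP15 replicate 4 and P15 replicate 4 together (0.0639).

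**Figure D5:**
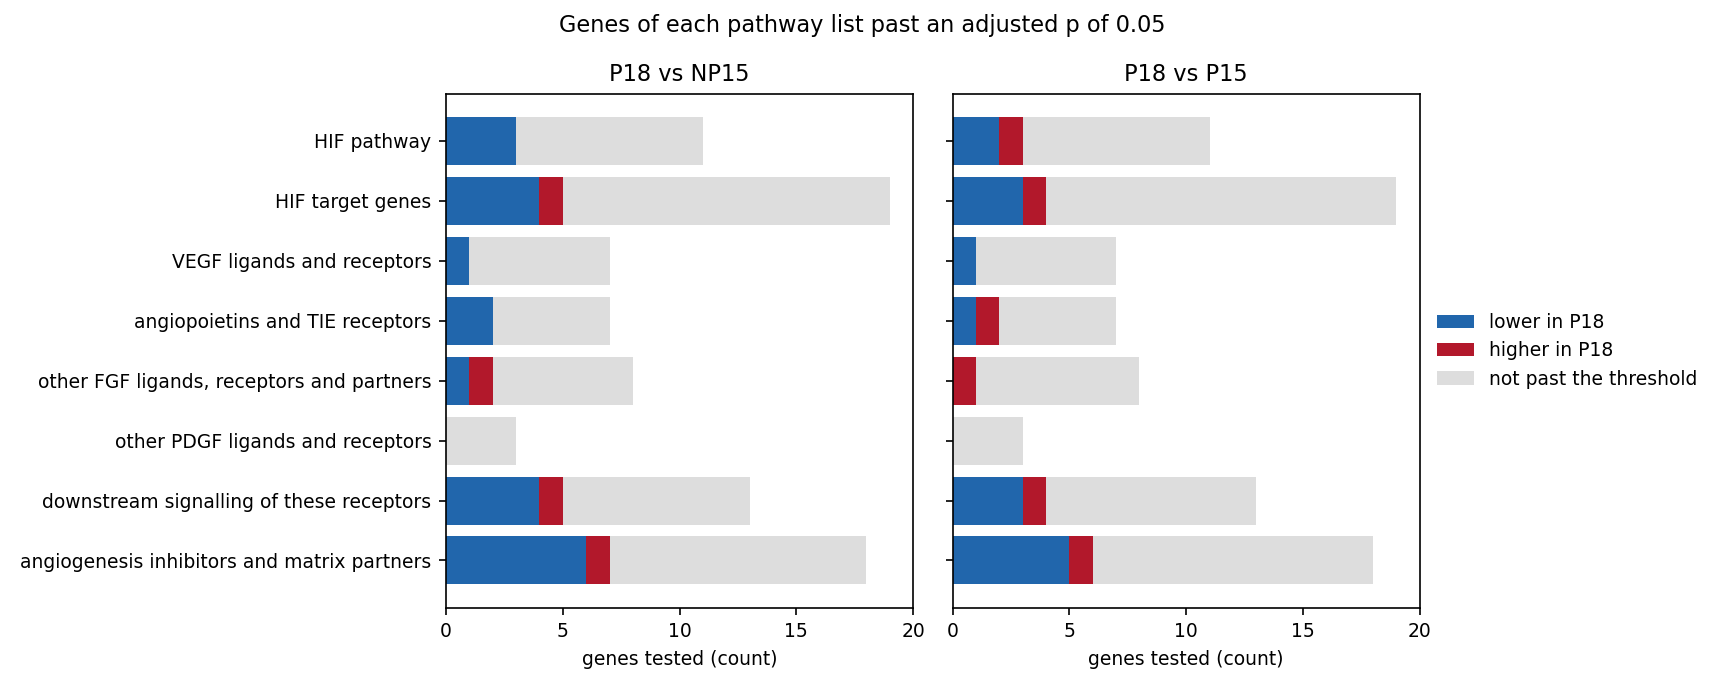
Number of tested genes (x axis, count) of each pathway list that were lower in P18, higher in P18 or not past an adjusted p of 0.05, for P18 against NP15 and P18 against P15. Most genes of each list did not pass, and of these lists that of angiogenesis inhibitors and matrix partners holds the most lower genes (6 of 18 and 5 of 18).

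Most of the other VEGF ligands and receptors did not pass. Of 7 genes, 1 was lower in P18 against each day 15 group (all probes: 18.7% lower against NP15, 15.6% against P15) and 0 were higher, with median log2 changes of −0.32 against NP15 and −0.29 against P15. VEGFB, a ligand of FLT1, changed by −0.42 against NP15 (limma adjusted p = 0.0337). VEGFD, a lymphatic growth factor, passed against P15 (limma adjusted p = 0.00557), but no P18 array read it well above background, so no fold is given. It did not pass with normexp (0.999). The receptor FLT1 (VEGFR1) had log2 changes of 0.13 against NP15 (limma adjusted p = 0.787) and 0.30 against P15 (0.511). FLT4 (VEGFR3) was well above background on 0 P18 arrays and on 4 arrays of each day 15 group, so no fold is given. Its limma adjusted p was 0.201 against NP15 and 0.294 against P15. Neither FLT1 nor FLT4 passed. VEGFB was lost with median centring, the 2 groups alone and the replicate block, without NP15 replicate 1, 2 or 4 or P18 replicate 2, 3 or 4, and without NP15 replicate 4 and P15 replicate 4 together (adjusted p = 0.0727).

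The angiopoietin system acts through TEK and TIE1 on endothelial cells. The list of 7 tested genes also holds the angiopoietin-like genes ANGPTL1, ANGPTL4 and ANGPTL7, grouped with it by name. Of the 7, 2 were lower in P18 against NP15 (all probes: 18.7%), and 1 was lower and 1 higher against P15 (all probes: 15.6% lower, 13.5% higher). ANGPTL7, counted in both, met the filter only through NP15, in which it was brighter. Leaving it aside, ANGPT2 was the only gene of the list that passed in P18. ANGPT2, which destabilises vessels by opposing ANGPT1, changed by −0.91 against NP15 (limma adjusted p = 0.00552) and −0.90 against P15 (0.00591), with 3 of 4 P18 arrays well above background. It did not pass with normexp (adjusted p = 0.141 in both). ANGPT1, TEK and TIE1 did not pass. Against NP15 their log2 changes were −0.26, −0.12 and −0.31 (limma adjusted p = 0.633, 0.378 and 0.418), and against P15 −0.70, −0.20 and −0.51 (0.184, 0.152 and 0.178). ANGPTL7 was the 1 gene of the list that passed between P15 and NP15 (limma adjusted p = 0.000703), at least 1.17-fold lower in P15, in which no array was well above background. That probe lies in row 191 of 192, among the outer rows. It also passed as lower in P18 than in NP15 (limma adjusted p = 0.00558) and as higher than in P15, where both groups were below background and no fold is given. None of its 3 calls passed with normexp.

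In the FGF family, 8 further genes were tested of 12 on the array. Of these 8, 1 was higher and 1 lower in P18 against NP15 (all probes: 11.2% higher, 18.7% lower), and 1 was higher and 0 lower against P15 (all probes: 13.5% higher, 15.6% lower). FGF4, a growth factor best known from the embryo, was higher by 1.53 against NP15 (limma adjusted p = 0.00489) and by 1.36 against P15 (0.00971). It was well above background on 4 P18 arrays and on 3 arrays of each day 15 group. Its mean log2 level in P18 was −5.16, near the lowest level well above background on P18 arrays (−6.08 to −5.36). FIBP, a protein that binds FGF1 inside cells, changed by −0.79 against NP15 (limma adjusted p = 0.0197). With normexp FGF4 was higher by 1.01 against NP15 and by 0.89 against P15, and still passed. FIBP was lost with median centring, without P18 replicate 1 or 3 (adjusted p up to 0.0586), and without NP15 replicate 4 and P15 replicate 4 together (0.0549). The other receptors did not pass: FGFR2 had log2 changes of 0.19 against NP15 (limma adjusted p = 0.718) and −0.56 against P15 (0.242). Its second probe had −0.21 against NP15 (0.582) and −0.31 against P15 (0.415). FGFR3 had −0.02 against NP15 (limma adjusted p = 0.917) and −0.07 against P15 (0.725). Between P15 and NP15 FGFR2 had the smallest p (log2 change 0.75, limma adjusted p = 0.562).

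None of the 3 other PDGF genes tested passed in any comparison. The receptor PDGFRA had a log2 change of 0.69 in P15 against NP15 (limma adjusted p = 0.807), the ligand PDGFC of −0.22 in P18 against NP15 (0.389), and PDGFRL, a protein resembling the receptor, of 0.55 in P18 against P15 (0.111). PDGFRL passed under 4 of 11 alternatives.

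Downstream of these receptors 13 signalling genes were tested, with median changes of −0.38 against NP15 and −0.55 against P15. In P18, 4 of the 13 were lower and 1 higher against NP15 (all probes: 18.7% lower, 11.2% higher), and 3 were lower and 1 higher against P15 (all probes: 15.6% lower, 13.5% higher). PLCG1, the phospholipase that KDR and FGFR1 activate, was 4.85-fold lower than in NP15 (log2 change −2.28, limma adjusted p = 2.32e-05) and 4.50-fold lower than in P15 (−2.17, 3.63e-05). Its probe, in outer row 20, was well above background on 4 of 4 P18 arrays. The mean P18 log2 level of PLCG1 was −5.54, near the lowest level well above background there (−6.08 to −5.36). The part of background in this fall was not tested. AKT1, a survival kinase, changed by −0.74 against NP15 (limma adjusted p = 0.00402) and −0.59 against P15 (0.0141). PIK3CA, the catalytic subunit of the kinase above it, changed by −0.66 against NP15 (limma adjusted p = 0.0120) and −0.60 against P15 (0.0192). SPRY4, an inhibitor of receptor signalling that growth factors induce, was higher by 1.52 against NP15 (limma adjusted p = 0.000130) and by 1.75 against P15 (7.53e-05), and was well above background on 3 of 4 P18, 2 of 4 P15 and 4 of 4 NP15 arrays. PLCG1 and SPRY4 passed under each alternative in which they were tested and without any single array. With normexp PLCG1 changed by −1.36 against NP15 and −1.30 against P15, and SPRY4 by 0.89 against NP15 and 0.88 against P15. AKT1 against P15 and PIK3CA in both comparisons were lost with median centring. PIK3CA was also lost with the local position adjustment in both, and against P15 with quantile normalization and without P15 replicate 4 or P18 replicate 4 (adjusted p up to 0.0538). MAP2K2 had the smallest p between P15 and NP15 (limma adjusted p = 0.781).

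Inhibitors of angiogenesis and matrix partners that hold growth factors formed the pathway list with the most lower genes. Of 18, 6 were lower and 1 higher in P18 against NP15 (all probes: 18.7% lower, 11.2% higher), and 5 were lower and 1 higher against P15 (all probes: 15.6% lower, 13.5% higher). Median log2 changes were −0.40 against NP15 and −0.36 against P15. COL18A1, whose fragment endostatin restrains vessel growth, was 3.20-fold lower than in NP15 (log2 change −1.68, limma adjusted p = 5.17e-05) and 3.52-fold lower than in P15 (−1.82, 3.86e-05). VASH1, vasohibin, an inhibitor made by endothelial cells, changed by −0.83 against NP15 (limma adjusted p = 0.00691) and −0.68 against P15 (0.0185). HSPG2, perlecan, a heparan sulfate proteoglycan that binds FGF2, changed by −0.56 against NP15 (limma adjusted p = 0.00470) and −0.44 against P15 (0.0176). Its second probe had −0.54 against NP15 (0.139) and −0.57 against P15 (0.119) and did not pass. GPC1, a cell surface proteoglycan, was higher by 1.15 against NP15 (limma adjusted p = 0.000260) and by 0.83 against P15 (0.00179). Its mean log2 level in P18 was −5.56, near the lowest level well above background on P18 arrays (−6.08 to −5.36). SDC2, syndecan 2, was the 1 gene of the list lower in P15 than in NP15 (−0.66, limma adjusted p = 0.0269), and its probe lies in row 190 of 192.

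COL18A1 and GPC1 passed under each alternative and without any single array, and with normexp GPC1 was higher by 0.72 against NP15 and by 0.46 against P15. VASH1 was lost with normexp in both comparisons, and against P15 with median centring and without P15 replicate 3 (adjusted p = 0.0551). HSPG2 was lost with median centring in both, and against P15 with the local position adjustment and without P15 replicate 3 (0.0513). SDC2 was lost on the 2 groups alone, with the local position adjustment, and when any 1 of NP15 replicates 1, 2 and 4 and P15 replicates 1, 2 and 3 was left out (up to 0.100), and without NP15 replicate 4 and P15 replicate 4 together (0.0725).

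Of 16 markers of endothelial cells most did not pass. In P18, 6 were lower and 0 higher against NP15, and 6 were lower and 1 higher against P15. Over all probes 18.7% were lower and 11.2% higher against NP15, and 15.6% were lower and 13.5% higher against P15, shares beside which all marker counts here stand. PECAM1, CDH5, ERG, VWF and CD34 were lower against both groups, ROBO4 was lower against NP15 and SOX18 against P15. Their log2 changes were −1.58 to −0.42 against NP15 and −1.36 to −0.41 against P15 where they passed. PLVAP was higher than in P15 by 1.96 (limma adjusted p = 0.00545), with 2 P18 and 1 P15 array well above background, and had a log2 change of 1.18 against NP15 (0.0562), which did not pass. The 16 markers summed to 3824% to 4494% of the 75th percentile in P18, against 4591% to 5836% in P15 and 4558% to 6428% in NP15, with no marker below background on all arrays of a group. Fibroblast markers summed to 5664% to 6972% in P18, 7380% to 9009% in P15 and 7556% to 8854% in NP15, and 3 of 7 were lower against each. Pericyte and smooth muscle markers summed to 1424% to 2011% in P18, 1964% to 2636% in P15 and 1889% to 2696% in NP15, with 1 of 7 lower against each. Luteal steroidogenic markers summed to 41376% to 51683% in P18, 45165% to 57318% in P15 and 57639% to 70960% in NP15. These sums depend strongly on HSD3B1, read by a probe in the outer rows. Its mean log2 level was 6.87 in P18, 6.10 in P15 and 7.56 in NP15, and no sum without it was taken. Of the 11 steroidogenic markers, 3 were lower and 1 higher in P18 against NP15, and 1 was lower and 2 higher against P15. Leukocyte markers summed to 130% to 273% in P18, 98.1% to 185% in P15 and 103% to 155% in NP15. Of the 11, 1 was higher (CD2) and 1 lower (PTPRC) in P18 against NP15. Against P15, 2 were higher (CD68 and MS4A1) and 1 lower (PTPRC). For 2 of the 11, PTPRC and MS4A1, no P18 array exceeded background clearly, so no fold is given. Between P15 and NP15, 1 steroidogenic marker was lower, HSD3B1, whose probe lies in row 192 of 192, among the outer rows, and 0 markers of the other 4 cell types passed. The part of these shifts in the results for HIF1A, the ligands and the receptors was not tested.

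The genes whose levels followed each of the 7 most closely over the 12 arrays were taken from 5112 probes with a symbol that were well above background on all arrays. The correlations are descriptions over arrays that share groups and slides, and the value after subtracting group means is the part left within groups. For HIF1A the closest were CSNK1A1, a casein kinase (r = 0.979, within groups 0.596), IMMT, a mitochondrial inner membrane protein (0.978, within groups 0.201), and HDAC1, a histone deacetylase (0.977, within groups 0.508). For VEGFA (ABR7080) they were MYC (0.941, within groups 0.898), VCAN, versican (0.939, within groups 0.900), and TUBB6, a tubulin (0.929, within groups 0.909). For KDR (ABR2024) they were SBDS (0.767, within groups 0.748), DIO2 (0.663, within groups 0.673) and PLCB4 (0.662, within groups 0.799). Over the 12 arrays these were the weakest of the 7 genes, but within groups they exceeded those of HIF1A. For FGF1 they were OLFML1 (0.944, within groups 0.850), RRP15 (0.943, within groups 0.851) and NFIL3 (0.942, within groups 0.798). For FGF2 they were ZNF358 (0.891, within groups 0.888), CCN1 (0.802, within groups 0.800) and the angiogenesis inhibitor THBS2 (0.799, within groups 0.809). For FGFR1 they were UBE3A (0.983, within groups 0.859), DYSF (0.966, within groups 0.730) and RPL17 (0.964, within groups 0.731). No P18 array read FGFR1 well above background, so its correlations rest in part on values below background. For PDGFB they were AKAP13 (0.952, within groups 0.665), DDX5 (0.948, within groups 0.782) and PAN3 (0.941, within groups 0.575).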

How the data were processed

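Corpus luteum RNA of 12 cows was measured on 12 one-channel arrays, 4 in each of P18, P15 and NP15 as labelled. Intensity values were made with Agilent Feature Extraction 9.5, per the submitters' processing notes, with background subtracted within each array, per the file headers, and no scaling between arrays. The files also hold mean and background signals, which the normexp alternative used, and flags of 0 or 1, per the file headers. The deposited table holds the same signal on the log2 scale, shifted per array by a constant whose distance from the 75th percentile was −0.0142 to −0.0076, with column medians of −3.32 to −2.99, and served as an alternative. Here log2(processed signal) minus each array's 75th percentile over 15208 non-control probes was used, and spots marked non-uniform or as population outliers were left out. Each probe was fitted with the functions lmFit and eBayes of limma 3.58.1 (R 4.3.3; all 12 arrays, group means, two-sided), with Benjamini-Hochberg adjustment over 12605 probes, after a test on simulated data. A symbol was assigned to 7081 probes through the files' annotation and RefSeq names (assembly ARS-UCD2.0); where a gene of a list had several probes, the brightest was taken.

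The labels describe 4 animals per group, so replicates are separate cows. Their numbers match the slide column of each array. The numbers were not taken to pair the groups: correlations of same-numbered deviations ranged from −0.040 to 0.293 and were not all over 0.1. Between P15 and NP15, which shared a slide, these correlations were 0.097 to 0.293. The genes and lists were chosen with earlier results of these data known. Named from each list were the genes that passed, at most 4 by smallest p, or else the 1 with the smallest p. SLC2A1, SLC2A3 against NP15, ARNT in P18, FLT1, FLT4, TEK, TIE1 and ANGPT1 were added after their values were seen. So were FGFR2, FGFR3, HSD3B1 and the endothelial and leukocyte markers. Alternatives were the deposited table, median centring, quantile normalization, normexp background correction with an offset of 50, other filters, inner rows alone, a local position adjustment, array weights, marked spots kept, the brightest probe per gene, 2 groups alone, the replicate number as a block and each array left out. Leaving out NP15 replicate 4 and P15 replicate 4 together was added after seeing the data.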

Additional observations from a re-analysis of the deposited data

Results flagged for a closer look

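In P18, HIF1A was lowest in replicate 4, with a log2 level of −0.856 relative to the 75th percentile, against −0.757 to −0.740 in the other 3 cows. The gap to the nearest cow was 0.856 of the group's whole range, above Dixon's 95% critical value for 4 samples. Of 30 groups of 4 examined this way 1 stood out, and chance gives about 1 in 20.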

How the results depend on the processing

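Of 1940 recomputed changes of single probes, 1815 kept their direction and their side of the threshold, 88 no longer passed, 6 passed newly and 31 turned. The count of probes past the threshold between P15 and NP15 (123) was 65 on the 2 groups alone, 214 with array weights, 0 with the inner rows alone, 41 with the local position adjustment, 76 with normexp, 75 with the replicate block, and 67 to 121 without single arrays; 0 of the 9 probes of the 7 genes passed throughout. Against NP15, 3 of these probes passed in P18 with the inner rows alone, with normexp, and with probes above background on all 12 arrays; against P15, 3 passed with the inner rows alone and with the last filter. Fewer of the 9 were tested in the inner rows (6) and above background on all arrays (7), which leaves out FGF1 and FGFR1 in the inner rows, and FGFR1 and PDGFB above background. Without a filter 5506 probes passed against P15. No value that had passed turned except ANGPTL7 against P15 (−0.0584 with quantile normalization) and VEGFD against P15 (0.000483 with normexp), both below background in P18. In P18 against NP15, KDR ABR1800 was −0.17 with array weights, −0.11 with the local position adjustment and −0.22 without NP15 replicate 4 and P15 replicate 4, and FGF2 was −0.0697, −0.0864 and −0.000487. Without those 2 arrays, PDGFB was −0.00325 and PDGFRA −0.10 in P15 against NP15. With median centring KDR ABR2024 was 0.14 and FGF2 0.12 against P15, and PDGFC 0.0234 against NP15; FGF2 against P15 was also 0.000384 with normexp and 0.0806 with quantile normalization. MAP2K2 in P15 against NP15 was 0.0295 with the local position adjustment. Without single arrays, changes in P15 against NP15 ranged from −0.216 to 0.0874 for VEGFA ABR7085, −0.345 to 0.0401 for VEGFA ABR7080 and −0.00271 to 0.30 for PDGFB; in P18 against NP15 from −0.22 to 0.53 for KDR ABR1800, −0.0396 to 0.13 for KDR ABR2024 and −0.17 to 0.50 for FGF2; and in P18 against P15 from −0.21 to 0.0290 for KDR ABR2024 and −0.54 to 0.13 for FGF2. The cause of these moves was not tested. Of the 8 arrays in each comparison, 6 (P15 against NP15), 4 (P18 against NP15) and 3 (P18 against P15) correlated best with their own number; with the replicate block 0, 5 and 5 of the 9 probes passed, as without it. Signal over background limits FGFR1, PDGFB and FGF2 ABR7076, and the size of the fall of PLCG1. It also limits the rises of FGF4, GPC1, SPRY4, PFKFB3, HIF3A and PLVAP, whose mean P18 log2 levels were −5.72 to −5.16. The lowest level well above background on P18 arrays was −6.08 to −5.36, and the part of background in these rises was not tested.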
